A study of Mus musculus with 3 samples.

Results

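TRBV4, TRBV17, TRBV23, TRBV24, TRBV26 and TRBV30, 6 V genes of the TCR β chain grouped as genes of low use, were followed in T cells of inflamed nerve. They were chosen by the V gene name that the deposited files give each contig, an assembled TCR transcript. Of the 22 TRBV names carried by productive contigs of called cells, 4 were among these 6 genes, and the names TRBV4 and TRBV24 were carried by none. The 4 names were found in 163 of 6256 cells with a TRB.

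The libraries were droplet-based scTCR-Seq of CD45+ cells sorted from sciatic nerves of neuropathic NOD.AireGW/+ mice, which carry 1 mutated copy of Aire, a gene needed for thymic tolerance, on the NOD background. Replicates 1 and 2 each came from 1 mouse, and replicate 3 pooled 2 mice. All 3 libraries were of this 1 condition, so no conditions were compared, and the labels give no age. Gene expression was not analysed here, so a called cell with a TRB contig is called a T cell and is not divided into CD4+ and CD8+ cells. No doublets were removed, and cells with more than 1 TRB were kept.

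A β chain is made when 1 V segment is joined to a D and a J segment, with bases trimmed and added at the junction, which forms the CDR3 loop. How often a V segment is used depends on the recombination signal beside it and on selection of the finished receptor. Superantigens of endogenous mammary tumor viruses delete T cells by the V segment alone. NOD mice carry Mtv-3, whose superantigen deletes cells with Vβ3, the older name of TRBV26. In RefSeq, the older names of TRBV4, TRBV17, TRBV23, TRBV24 and TRBV30 are Vβ10, Vβ9, Vβ20, Vβ17 and Vβ18.

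All 6 genes lie on chromosome 6, on the plus strand. The lines below give, from GRCm38 (the build also named mm10), the last 20 bases of each V segment and the recombination signal that follows. The heptamer and the nonamer, read after a spacer of 23 bases, are in capitals. They are shown because the germline ends tell the contigs apart.
TRBV4: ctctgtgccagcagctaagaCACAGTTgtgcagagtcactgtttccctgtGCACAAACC
TRBV17: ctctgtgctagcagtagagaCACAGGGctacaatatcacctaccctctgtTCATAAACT
TRBV23: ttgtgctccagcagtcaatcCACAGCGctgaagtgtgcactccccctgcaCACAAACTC
TRBV24: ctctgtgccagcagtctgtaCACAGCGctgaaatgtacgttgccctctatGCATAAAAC
TRBV26: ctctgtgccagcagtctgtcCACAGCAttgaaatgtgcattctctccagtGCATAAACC
TRBV30: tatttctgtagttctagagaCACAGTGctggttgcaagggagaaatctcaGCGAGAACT

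Of these heptamers, CACAGTG, that of TRBV30, followed 8 of the 35 annotated Trbv genes on the coding strand, and those of TRBV4 and TRBV17 followed only these genes. In GENCODE M21, TRBV4 is at chr6:41059394-41059886, TRBV17 at chr6:41163062-41163556, TRBV23 at chr6:41216073-41216526, TRBV24 at chr6:41218091-41218557, TRBV26 at chr6:41227505-41227993 and TRBV30 at chr6:41281376-41281990. TRBV24 is annotated as a pseudogene and the other 5 as V genes. In the frame of the conserved cysteine that opens the CDR3, TRBV24 has the stop codon TAG 2 codons before it, and TRBV4 has TAA 4 codons after it, inside the bases that trimming can remove. TRBV23, TRBV24 and TRBV26 are relatives. TRBV23 and TRBV24 share 223 of 298 aligned bases of the V exon (74.8%) and TRBV24 and TRBV26 share 220 of 298 (73.8%), whereas other pairs among the 6 genes share 51.4% to 57.4%, apart from TRBV23 and TRBV26 with 73.2%. The ends of TRBV24 and TRBV26 differ only in the last base of the segment.

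Depth set the precision. Replicates 1, 2 and 3 held 2253, 3361 and 642 cells with a TRB, and 1302, 2033 and 537 rearrangements, each a distinct V gene, nucleotide CDR3 and J gene. The median productive TRB contig had 7, 6 and 4 UMIs (unique molecular identifiers). No more than 7 cell barcodes were shared by any pair of libraries, 10 in all, and none of the 10 was a cell with one of the 6 genes.

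TRBV4, absent by name, was present by sequence. No contig in any file, in a cell or not, was named TRBV4. However, all 164 productive contigs named TRBV10 in replicates 2 and 3 had 1 and the same V region, from framework 1 to framework 3, and its 270 bases were identical to TRBV4 of GRCm38. Their match to the gene annotated as Trbv10, a pseudogene, was 112 of 270 bases. The other 21 names were each most often identical to a gene of their own name. Replicate 1 has no V region column, and its contigs named TRBV10 could be compared only by their CDR3 start, which several Trbv ends share. TRBV4 was the best match, alone or in a tie, for 36 of 55 productive rearrangements there, 38 of 62 in replicate 2 and 15 of 20 in replicate 3. None matched the end of Trbv10 over more than 3 bases. RefSeq gives Tcrb-V10 as a synonym of TRBV4. How the name TRBV10 came about was not tested. TRBV10 was singled out after its values were seen.

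Counted under the name TRBV10, TRBV4 was not among the least used genes in replicates 2 and 3, where the V region was read. Rearrangements named TRBV10 numbered 55 of 1302, 62 of 2033 and 20 of 537 in replicates 1 to 3, shares of 4.22%, 3.05% and 3.72%. Their mean was 3.67% ± 0.589 (SD, n = 3 libraries), above that of TRBV17 in every library. They were in 246 cells. Taken by name, a count of 0 allows TRBV4 and TRBV24 a share of up to 0.230%, 0.148% and 0.559% of productive rearrangements in the 3 libraries. A chain that keeps the TRBV24 stop codon of GRCm38, which lies before the cysteine, cannot be productive. Where these mice carry it, the TRBV24 count of 0 was fixed in advance and this bound has no meaning.

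**Figure D1:**
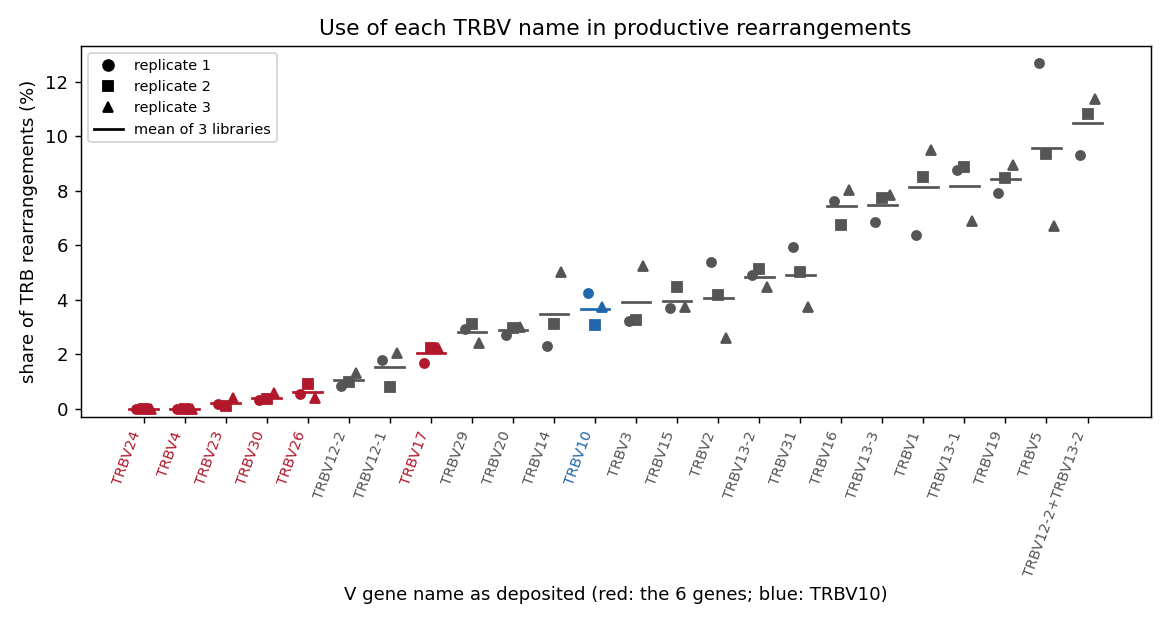
Share of productive TRB rearrangements (%, y axis) for each deposited V name (x axis), ordered by the mean of the 3 libraries (bar), with 1 point per library. The 6 genes are in red, from 0 for TRBV4 and TRBV24 to a mean of 2.05% for TRBV17, and TRBV10, whose V region was that of TRBV4 in replicates 2 and 3, is in blue at 3.67%.

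Use of the remaining genes was low in each library. TRBV17 made up 22, 45 and 12 rearrangements in replicates 1 to 3, which was 1.69% (Clopper-Pearson 95% interval 1.06% to 2.55%), 2.21% (1.62% to 2.95%) and 2.23% (1.16% to 3.87%). TRBV26, the Vβ3 gene, was present in every library, with 7, 18 and 2 rearrangements, or 0.538% (0.216% to 1.10%), 0.885% (0.526% to 1.40%) and 0.372% (0.0451% to 1.34%). TRBV30 had 4, 7 and 3 rearrangements, or 0.307%, 0.344% and 0.559%. TRBV23 had the lowest mean share of the 4, with 2 rearrangements in each library, or 0.154%, 0.0984% and 0.372%. In replicate 3 this equaled TRBV26, and by cells TRBV23, with 4, was there above TRBV26 with 2 and TRBV30 with 3. The intervals cover counting error only.

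In order of mean share, TRBV17 stood at 2.05% ± 0.309, TRBV26 at 0.598% ± 0.262, TRBV30 at 0.403% ± 0.136 and TRBV23 at 0.208% ± 0.145 (SD, n = 3 libraries). Neighbors in this order had overlapping intervals in every library, except TRBV17 and TRBV26 in replicate 2. Of pairs that are not neighbors, TRBV26 and TRBV23 were separate in replicate 2. TRBV17 was separate from both TRBV30 and TRBV23 in replicates 1 and 2. Only TRBV12-2, at 1.04%, and TRBV12-1, at 1.53%, of the names outside the 6 genes lay at or under TRBV17, and TRBV29, at 2.81%, came next above it. TRBV12-1 was the name nearest to TRBV17, and TRBV12-2 the nearest to each of the other 5.

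Whether use differed between the libraries was tested by an exact two-sided test, adjusted over the 21 names with at least 10 rearrangements, of which 4.76% were called. None of TRBV17, TRBV26 and TRBV30 was called (exact test, adjusted p = 0.800, 0.717 and 0.817), and 5 names had an unadjusted p under 0.05. TRBV23 had too few rearrangements to be tested. The p-values of these tests compare rearrangements of 3 libraries, not mice. Together the 4 names made up 35, 72 and 19 rearrangements, 3.26% ± 0.492 (SD, n = 3 libraries), and 6.92% ± 0.336 with those named TRBV10.

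The names of the 4 genes held for productive contigs. In replicates 2 and 3, the V regions of 67 of 67 contigs named TRBV17, 7 of 7 named TRBV23, 25 of 25 named TRBV26 and 13 of 13 named TRBV30 were identical to those genes in GRCm38, over 270, 273, 273 and 276 bases.

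A T cell has 2 TRB alleles, and 1 of them can carry a rearrangement that gives no receptor chain. Contigs are also called nonproductive when they are incomplete. Contigs named TRBV23 were mostly nonproductive. The name is as deposited, and most nonproductive ones with a CDR3 start like another gene, as given below. In called cells, 13 of 15, 24 of 26 and 10 of 12 distinct TRBV23 contigs of replicates 1 to 3 were nonproductive. Over the libraries this was 88.7% (interval 77.0% to 95.7%), against 12.4% of contigs with other names, and the difference was called (exact stratified test, adjusted p = 9.13e-35). Of 22 names tested, 63.6% were called, 7 higher and 7 lower, so a call here is common. Of all TRBV23 contigs in cells, before repeats were merged, 60 of 63 nonproductive ones were not full length. Among full-length contigs alone, 3 of 9 distinct TRBV23 contigs were nonproductive, 33.3% (7.49% to 70.1%), too few to be tested. Of the cells with a nonproductive TRBV23 contig, 60 of 63 also had a productive TRB, as did 601 of 683 for names outside the 6 genes.

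TRBV17 had 8 of 30, 16 of 61 and 0 of 12 nonproductive contigs in replicates 1 to 3. Its share of 23.3% (15.5% to 32.7%) was called higher than the 13.1% of the other names (exact stratified test, adjusted p = 0.00941), but this rested on contigs with no CDR3, which cannot be merged into rearrangements and were counted for each cell. Of the 24 nonproductive TRBV17 contigs, 20 had no CDR3. Among contigs with a CDR3, 4 of 83 (4.82%) were nonproductive, under the 8.34% of the other names and not called (exact stratified test, adjusted p = 0.386). The call was also lost without replicate 1, with shares of 21.9% against 13.1% (exact test, adjusted p = 0.0691), and without replicate 2, with 8 of 42 against 12.4% (exact test, adjusted p = 0.327). With full-length contigs only, the TRBV17 call held, at 16 of 95 against 8.05% (exact stratified test, adjusted p = 0.0110). With barcodes outside called cells included it also held, at 37.8% against 23.1% (exact stratified test, adjusted p = 0.000126). For the name TRBV23 the share among contigs with a CDR3 was 81.8%, 27 of 33, and still called (exact stratified test, adjusted p = 1.89e-23). Of these 27, 25 had a CDR3 start that matched another Trbv end better. The TRBV23 shares therefore describe the deposited name and not the TRBV23 segment.

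TRBV26 had 3 of 10, 1 of 19 and 1 of 3 nonproductive contigs, 15.6% over the libraries (5.28% to 32.8%), and TRBV30 had 1 of 15. Neither was called (exact stratified test, adjusted p = 0.708 and 0.780), and with so few contigs their intervals include the share of the other names. Contigs named TRBV10 were nonproductive in 23 of 78, 44 of 106 and 6 of 26, or 34.8% (28.3% to 41.6%) against 12.3%, and were called (exact stratified test, adjusted p = 2.51e-15). Of these 73 nonproductive contigs, 49 had no CDR3 and were counted for each cell. With such contigs counted once per library, V and J gene, the TRBV10 share was 23.5% against 10.9% (exact stratified test, adjusted p = 1.23e-05). Among TRBV10 contigs with a CDR3 the share was 14.9%, again called (exact stratified test, adjusted p = 0.00981).

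**Figure D2:**
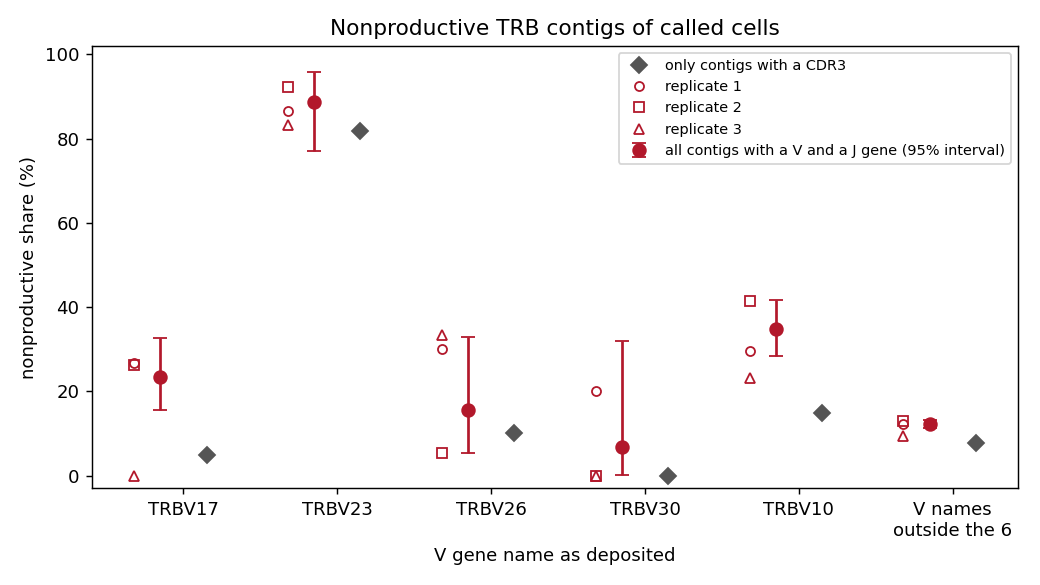
Nonproductive share (%, y axis) of distinct TRB contigs of called cells by deposited V name (x axis). Filled circles are all 3 libraries with Clopper-Pearson 95% intervals, open symbols single libraries and diamonds contigs with a CDR3 only. TRBV23 is above 80% in both of these counts, whereas TRBV17 goes from 23.3% to 4.82%. The last column pools the names outside the 6 genes, TRBV10 included.

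Contigs named TRBV23 fell into a productive and a nonproductive kind with different CDR3 starts. The 6 productive rearrangements opened with 11 to 15 bases of the TRBV23 end. Of 27 nonproductive ones with a CDR3, 1 matched the TRBV23 end as well as any other gene, and 25 matched another Trbv end over at least 8 bases and at least 3 bases further than TRBV23. For 17 of these 25 the best match included TRBV24. It was TRBV24 alone for 5, a tie of TRBV24 and TRBV26 for 11, and TRBV26 alone for a further 4. The same measure found another gene in 0 of 27 productive TRBV26, 0 of 79 productive TRBV17 and 0 of 14 productive TRBV30 rearrangements. Among nonproductive ones it did so in 0 of 3 for TRBV26 and 0 of 4 for TRBV17. Outside the 6 genes, nonproductive ones gave 22 of 24 for TRBV10, 2 of 9 for TRBV12-2 and 1 of 10 for TRBV13-3. For no other name compared did it find any among nonproductive ones. Productive ones gave 134 of 137 for TRBV10, and at most 5.26%, 2 of 38 for TRBV12-2, for any other name outside the 6 genes. In the lines below, the bases that match the germline end best are in capitals. Both of the first 2 are productive, and the other 4 are nonproductive.
TRBV23 with TRBJ2-7, replicate 1: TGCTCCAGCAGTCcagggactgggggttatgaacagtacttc
TRBV23 with TRBJ1-1, replicate 3: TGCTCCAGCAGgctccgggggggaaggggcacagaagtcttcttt
TRBV23 with TRBJ2-4, replicate 1: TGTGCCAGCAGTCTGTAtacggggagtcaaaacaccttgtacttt
TRBV23 with TRBJ1-6, replicate 2: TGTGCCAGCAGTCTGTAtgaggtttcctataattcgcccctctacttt
TRBV23 with TRBJ2-1, replicate 2: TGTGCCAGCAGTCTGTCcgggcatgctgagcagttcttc
TRBV23 with TRBJ2-4, replicate 1, in 14 cells: TGTGCCAGCAGTCTGTttcag

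The third and the fourth carry the whole 17 bases of the TRBV24 end from its cysteine codon on, and the fifth those of TRBV26. The last was the only nonproductive TRBV23 rearrangement with a CDR3 in more than 3 cells. No contig was named TRBV24, and the names held by the reference that the authors used are not given in the sources used here. Without a V region column for nonproductive contigs, their V segment could be read only from the CDR3 start.

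**Figure D3:**
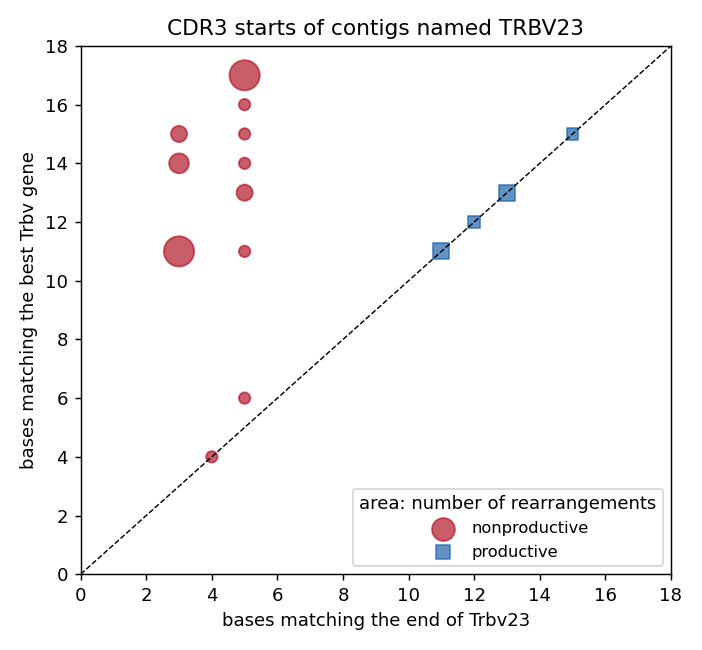
CDR3 starts of contigs named TRBV23. The x axis is the number of bases matching the end of TRBV23 and the y axis the number matching the best of 31 Trbv ends, and the area of a symbol is the number of rearrangements. The 6 productive rearrangements lie on the dashed line of equal match, and 25 of 27 nonproductive ones lie well above it.

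Another 64 contigs named TRBV26 had no J and no C gene, 1 in replicate 1, 21 in replicate 2 and 42 in replicate 3, all outside called cells. They made up 47.4% of all 135 contigs with this name. Under all other V names together, contigs with no J gene numbered 46, 10 and 8 in replicates 1 to 3. In replicates 2 and 3, all 63 of those named TRBV26 had the same CDR3 string, shown here because it placed them.
TRBV26 without a J gene: tgtaaagggaggttttgtgaagtt

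It matched the chromosomes of GRCm38 once, at chr19:5802350-5802373 on the minus strand. That is inside Malat1, a long noncoding RNA abundant in nuclei, which is on the same strand, and inside Gm37376 on the other. These contigs had a median of 4 UMIs and up to 33. None enters the counts of TRBV26 in cells.

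J segments differed in their values among the genes, but none was called. TRBV30 was joined to a TRBJ2 segment in 3 of 4, 7 of 7 and 3 of 3 rearrangements, 92.9% (66.1% to 99.8%). TRBV17 was joined to TRBJ2 in 12 of 22, 37 of 45 and 11 of 12, 75.9% (65.0% to 84.9%). TRBV26 had the lowest share, 3 of 7, 8 of 18 and 1 of 2, or 44.4% (25.5% to 64.7%), and all 3 libraries were at or under 50.0%. Names outside the 6 genes had 65.7%, with 64.3% to 67.4% in the 3 libraries.

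Against all other names, unadjusted p was 0.0254 for TRBV26, 0.0440 for TRBV30 and 0.0557 for TRBV17 in the exact stratified test, and adjusted p was 0.138, 0.138 and 0.146. Of 21 names tested, 4.76% were called, and 7 had an unadjusted p under 0.05. TRBV17 was called higher without replicate 1 (adjusted p = 0.0379 in the exact test), the library where its share was lowest. TRBV23 had 4 of 6 rearrangements with TRBJ2. The single most used segment was TRBJ2-7 for TRBV17, with 22 of 79, and TRBJ1-1 for TRBV26, with 7 of 27. For TRBV30 it was TRBJ2-1, with 4 of 14.

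**Figure D4:**
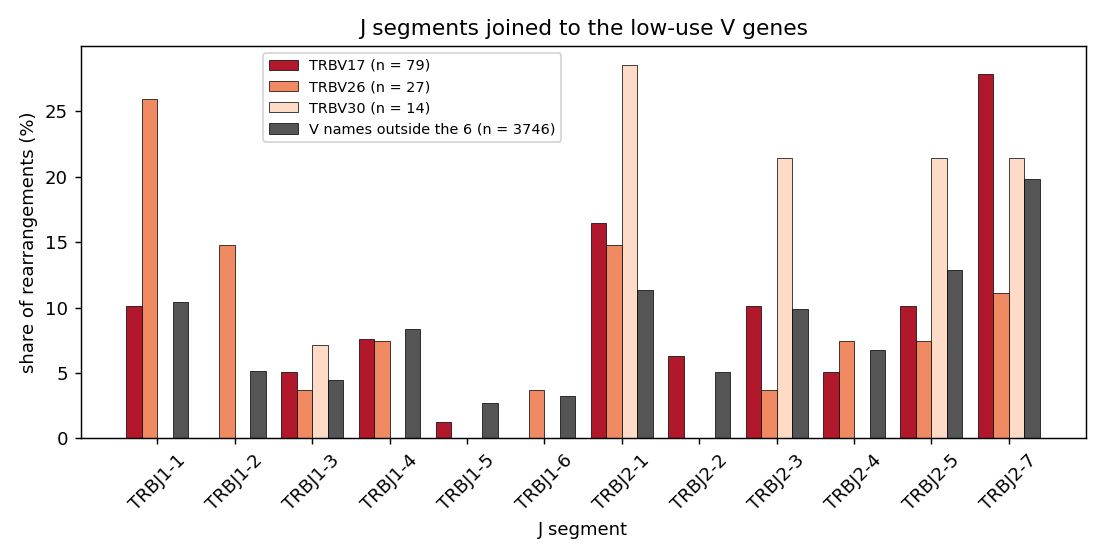
Share of rearrangements (%, y axis) joined to each J segment (x axis) for TRBV17, TRBV26 and TRBV30, with the names outside the 6 genes in gray. TRBV30 has 1 rearrangement outside the TRBJ2 segments, and TRBV26 is at 44.4% TRBJ2 against 65.7% for the names outside the 6 genes.

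Productive clones under the 4 names held at most 4 cells. Of 126 rearrangements, 23 (18.3%) were found in more than 1 cell of a library, against 20.3% of the 3746 of names outside the 6 genes. In more than 2 cells were 8.73%, against 9.40%. The names outside include TRBV10 here. Counted with the 6 genes, its rearrangements raised the share in more than 1 cell from 18.3% to 25.1%. The largest clone outside had 365 cells, among far more rearrangements. TRBV17 was in more than 1 cell for 14 of 79 rearrangements (17.7%, 10.0% to 27.9%), TRBV26 for 3 of 27, TRBV30 for 4 of 14 and TRBV23 for 2 of 6. The 3 expanded TRBV26 rearrangements were all in replicate 2. None of TRBV17, TRBV26 and TRBV30 was called against the 20.2% to 20.3% of other names (exact stratified test, adjusted p = 0.881, 0.568 and 0.864), in a test that called 4.76% of 21 names.

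The 1 name called was TRBV10, with 43 of 137 rearrangements in more than 1 cell, 31.4% (23.7% to 39.9%) against 19.8% (exact stratified test, adjusted p = 0.0299). In replicates 1 to 3 these were 13 of 55, 26 of 62 and 4 of 20. Replicate 2 carried the difference. Without it the share was 22.7% against 17.9% (exact test, adjusted p = 0.624), and without replicate 3 it was 33.3% against 21.0% (exact test, adjusted p = 0.0538). With expansion set at more than 2 cells, the shares were 12.4% and 9.26%, and the call was lost (exact test, adjusted p = 0.483). Its largest clone had 19 cells, joined to TRBJ1-3 in replicate 2, above every clone of the 4 names.

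The largest clone of each gene is given below with the germline bases in capitals, as these sequences mark the cells that carried it.
TRBV17 with TRBJ1-1, 4 cells of replicate 1: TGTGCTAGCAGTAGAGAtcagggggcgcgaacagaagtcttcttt
TRBV17 with TRBJ2-4, 4 cells of replicate 3: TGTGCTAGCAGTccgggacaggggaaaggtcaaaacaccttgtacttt
TRBV26 with TRBJ2-3, 4 cells of replicate 2: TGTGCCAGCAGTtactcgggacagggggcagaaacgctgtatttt
TRBV23 with TRBJ1-1, 3 cells of replicate 3: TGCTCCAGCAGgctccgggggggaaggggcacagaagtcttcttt
TRBV30 with TRBJ2-5, 3 cells of replicate 1: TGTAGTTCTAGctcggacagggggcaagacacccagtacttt
TRBV10 (TRBV4 by sequence) with TRBJ1-3, 19 cells of replicate 2: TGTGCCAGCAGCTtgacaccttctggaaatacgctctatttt

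The TRBV30 clone had the same α chain, TRAV14D-1 with TRAJ18, in all 3 of its cells. Another 2 TRBV30 clones also had 3 cells. In the TRBV17 clone of replicate 1, the α chains of 4 cells were of 3 kinds. Its TRB contigs had 1 to 14 UMIs, with a median of 2, and whether these cells are 1 clone was not tested. The 4 cells of the TRBV17 clone in replicate 3 and the 3 cells of the TRBV23 clone had no productive TRA contig. No TRB of the 4 names, by nucleotide or amino acid CDR3, was found in more than 1 library. Among names outside the 6 genes, 51 of 3674 amino acid rearrangements (1.39%) were.

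The median CDR3 had 42 bases for TRBV17, TRBV26 and TRBV30, as for names outside the 6 genes, and 39 for TRBV23. The shortest was a TRBV23 CDR3 of 15 bases in replicate 2, found in 2 cells. All 15 bases matched the TRBV23 end, so none were left for the TRBJ1-4 segment named for it. It is counted among the 6 productive and the 2 expanded TRBV23 rearrangements. Productive rearrangements kept a median of 14 germline V bases for TRBV17, 13 for TRBV26 and 12 for TRBV30. For TRBV10, productive CDR3s kept at most 14 bases of the TRBV4 end. A CDR3 that keeps 15 contains its stop codon and cannot be productive, so this limit was fixed in advance. Of the nonproductive ones, 3 of 24 kept 15.

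A productive TRA was found in 70 of 101 TRBV17 cells (69.3%, 59.3% to 78.1%) and 19 of 32 TRBV26 cells (59.4%, 40.6% to 76.3%). For TRBV30 it was found in 14 of 21 cells (66.7%, 43.0% to 85.4%). The 18 names outside the 6 genes, taken 1 by 1, lay between 71.4% and 87.6%, with a median of 79.7%. All of these intervals reach into that range, and they take cells of 1 clone as independent. Replicate 3 had a lower share of cells with a productive TRA outside the 6 genes, 391 of 619, and for TRBV17, 5 of 15, but TRBV26 had 2 of 2. Without it, TRBV17 stood at 75.6% and TRBV30 at 72.2%, TRBV26 at 56.7% and the 18 names between 73.1% and 88.1%. A second productive TRB was found in 10.9% of TRBV17 cells, 12.5% of TRBV26 cells and 14.3% of TRBV30 cells, within the 5.67% to 16.2% of those 18 names. TRBV17 contigs had a median of 11, 9 and 6 UMIs in replicates 1 to 3, above the medians of 7, 6 and 4 over the names outside the 6 genes. TRBV26 had 5, 4 and 6, and in replicate 2 its median of 4, shared by 3 of 21 names, was above that of 1 name. These differences were not tested.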

How the data were processed

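The data were scTCR-Seq contig annotations of 3 libraries. The authors ran Cell Ranger on mm10 (version not given in the sources used here), and the contig tables they deposited hold read and UMI counts, gene names, CDR3 and length in bases. Per the labels, Seurat was also used. Clonotype and consensus files were not used. The 6 members and all lists were chosen with earlier results of these data known.

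Productive TRB contigs of called cells were collapsed to distinct V gene, nucleotide CDR3 and J gene within a library. Nonproductive shares used all TRB contigs of called cells with a V and a J gene, collapsed in the same way. A contig with no CDR3 counted once per barcode, V and J gene. Names were kept as deposited.

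Each V name with at least 10 items was compared with all others by an exact conditional test stratified by library, two-sided, and use between libraries by an exact test of the 2-way table, each with Benjamini-Hochberg adjustment and a threshold of 0.05. The tests were checked on simulated data. Intervals are Clopper-Pearson 95%, and an absent gene was given the share that 3 counts would make. UMIs and cells limit the precision.

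V regions and CDR3 starts were compared with GRCm38 and GENCODE M21. A CDR3 start was matched, from its first base, to any position in the last 40 bases of 31 Trbv genes, namely those followed by CAC. TRBV3, TRBV8, TRBV25 and TRBV27 were not compared. The genes named in the text were the 6 members, the V names nearest to them in mean share, those at or just above the highest member, and the largest clone of each member. Alternatives were other counting units, UMI minimums, cell and contig filters, item minimums and each library left out. Analyses ran in Python 3.11.15 with Biopython 1.88, scipy 1.17.1, numpy 2.4.6 and pandas 2.3.3.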

Additional observations from a re-analysis of the deposited data

Results flagged for a closer look

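V region sequences, which the counts of V names do not use, showed 164 productive contigs named TRBV10 in replicates 2 and 3 whose V region equals that of TRBV4. How the name arose was not tested.

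In barcodes outside called cells, 63 contigs named TRBV26 had no J gene and 1 CDR3 string, which lies in Malat1. There were 0 of them in replicate 1, 21 in replicate 2 and 42 in replicate 3.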

How the results depend on the processing

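No paired analysis was possible because all libraries belong to 1 group. The summed use of the 6 genes (3.26%) was 3.11% to 3.54% without each replicate, and 6.92% with contigs named TRBV10 counted in. Their nonproductive share (37.9%) was 36.4% to 40.0% without each replicate. It was 50.6% with all barcodes, 16.0% with full-length contigs only, 21.3% with only contigs that have a CDR3, 30.8% with contigs lacking a CDR3 counted once per library, V and J gene, and 20.0% without TRBV23. Rearrangements in more than 1 cell (18.3%) were 15.4% to 20.4% without each replicate, and 8.73% were in more than 2 cells. With contigs named TRBV10 counted in, 25.1% were in more than 1 cell. The TRBJ2 share (70.6%) was 66.7% to 75.8% without each replicate.

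Names called for use between libraries (1) numbered 0 to 2 without each replicate, those for expansion (1) numbered 0 to 1, and 0 with chains of at least 3 UMIs, and those for TRBJ2 (1) numbered 0 to 1. Names called for nonproductive share (14) numbered 10 to 13 without each replicate. The higher nonproductive share of TRBV17 stayed called with full-length contigs only and with all barcodes. It turned lower with only contigs that have a CDR3 (exact test, adjusted p = 0.386). It was also lower with contigs lacking a CDR3 counted once per library, V and J gene (exact test, adjusted p = 0.952). The cause was not tested. The alternatives on CDR3, on TRBV23 and on TRBV10 were chosen after seeing the data. Small numbers limit TRBV23, TRBV26 and TRBV30.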
